A study of Mus musculus with 6 samples.

Results

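The genes described here are the enzymes and partner proteins that place, copy and remove methyl groups on cytosine in DNA. They are Uhrf1, Uhrf2, Dnmt1, Dnmt3a, Dnmt3b, Tet1, Tet2, Tet3, Tdg and Usp7, 10 genes out of the 47643 counted, chosen by name and matched by gene identifier. The study measured total RNA of cells from dorsal root ganglia, which hold the sensory neurons beside the spinal cord, taken on embryonic day 13 from mice of the CD-1 strain. A lentivirus carried either a short hairpin RNA against Uhrf1 (shUHRF1, 3 libraries) or a control hairpin (shControl, 3 libraries), and the neurons were uninjured. All 6 libraries carried a lentiviral hairpin, so none stood for cells without virus. The labels give no hairpin sequence and no origin of the replicates, which may be separate cultures or technical repeats, and every p-value rests on the spread between them.

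In background, DNA methylation in mammals sits mainly on cytosines followed by guanine. DNMT3A and DNMT3B write new methyl groups, while DNMT1 copies the existing pattern onto the new strand after replication. UHRF1 is the E3 ubiquitin ligase that recognises half-methylated DNA and brings DNMT1 to it, UHRF2 is its paralog, and USP7 is the deubiquitinase that stabilises both UHRF1 and DNMT1. The TET enzymes oxidise the methyl group in steps, and TDG cuts out the most oxidised forms so that base excision repair can restore cytosine. Neurons no longer divide, so copying at replication has little part in them, whereas DNMT3A and the TET enzymes remain active in neurons after birth.

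The study's title links Uhrf1 to the microRNA miR-9, so the match between the seed of that microRNA and the members' transcripts is shown. Mouse miR-9-5p is given below as RefSeq has it for GRCm38.p6, with the seed, bases 2 to 8, in capitals. It is encoded at 3 places, which lie on chromosomes 3, 7 and 13. The sites are 25 bases of the 3′ untranslated region on GRCm38, read from the GENCODE M21 transcripts, with the 7 bases that pair with the whole seed in capitals.
mmu-miR-9-5p: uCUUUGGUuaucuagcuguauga
Uhrf1 site, chr17:56323322-56323346, plus strand: ttgtaactttACCAAAGtgtgcagg
Dnmt3a site, chr12:3910238-3910262, plus strand: attctccccaACCAAAGtcgaactg
The word searched was ACCAAAG, on the transcript strand, in the longest annotated 3′ untranslated region of each member. It occurred once in Uhrf1, 830 bases after the stop codon in a region of 984 bases, and once in Dnmt3a, 2501 bases after the stop codon in a region of 6696 bases. The word was not in the regions of the other 8 members. A shorter match, without the first base of the word and followed by A, occurred once in Tet1 and once more in Dnmt3a. Among 2945 genes with a region of similar length to that of Uhrf1, 8.66% held the word, and among 511 genes with a region like that of Dnmt3a, 45.0% did. These matches describe the letters alone, since miR-9 itself was not varied between the libraries.

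Reads in genes numbered 16501723 to 20973068 per shUHRF1 library and 15599776 to 22382813 per shControl library. Reads outside annotated genes made up 9.97% to 17.2% of entries in shUHRF1 libraries and 8.43% to 14.1% in shControl libraries, and were highest in replicate 2 of both groups. Levels are given in CPM, the reads of a gene scaled to a common library size, with TMM factors that correct that size for composition. Differences are log2 fold changes of shUHRF1 over shControl with their standard error, from the edgeR quasi-likelihood F test on all genes that passed the low-count filter. A gene was called at a Benjamini-Hochberg adjusted p below 0.05. Of the 10 members, 8 passed that filter, and Uhrf1 and Dnmt3b did not.

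**Figure D1:**
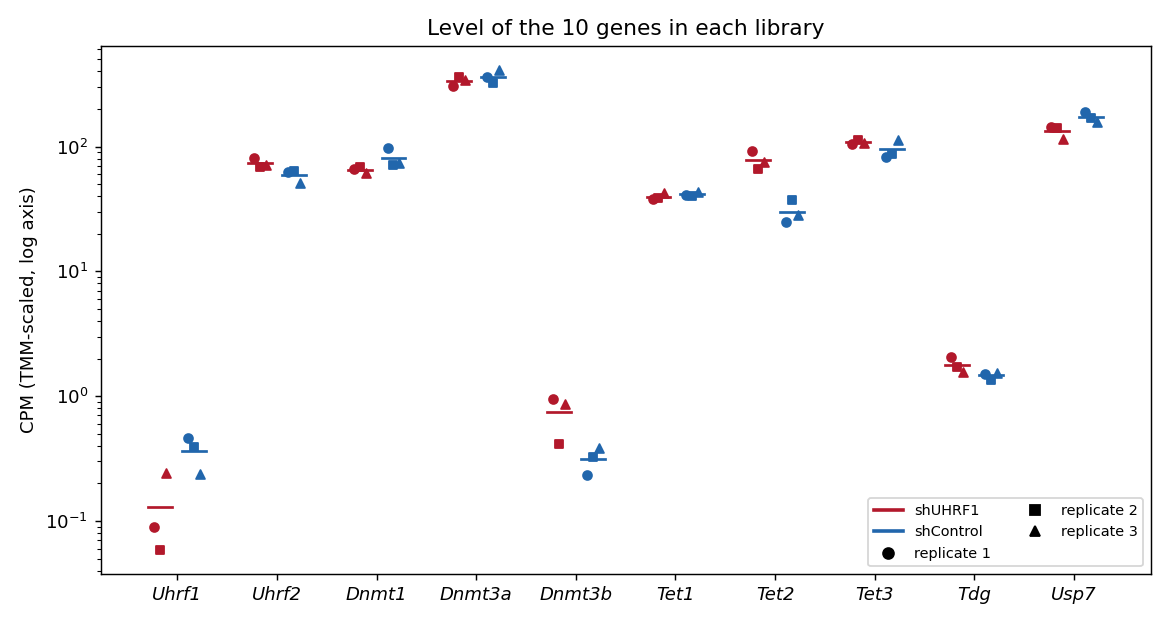
CPM of each of the 10 genes in each library, on a log axis, with shUHRF1 in red on the left and shControl in blue on the right. Symbols mark the replicate number and horizontal lines the group mean (n = 3 libraries each). The Tet2 points of the groups stand well apart, while the Dnmt3a, Tet1 and Tet3 points overlap. Uhrf1 and Dnmt3b lie near or below 1 CPM.

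Uhrf1, the target of the hairpin, was close to absent from the libraries of both groups. The gene (ENSMUSG00000001228.14) lies on chr17:56303321-56323486 on the plus strand of GRCm38. It had 2, 1 and 5 reads in the shUHRF1 libraries, against 8, 6 and 5 reads in the shControl libraries. The third library of each group held the same number, so the groups touched. Over each group these were 8 reads in shUHRF1 and 19 in shControl, a depth-scaled ratio of 0.377 with a 95% counting interval of 0.143 to 0.901. The two-sided exact permutation test over the 6 libraries gave p = 0.2, where 0.1 is the smallest p that 3 against 3 libraries allow. With Uhrf1 kept in the edgeR fit its log2 fold change was -1.39 ± 0.62, with an adjusted p of 0.141 and a 95% interval of -2.82 to 0.03. Leaving out shUHRF1 replicate 3 moved the ratio to 0.216, and without any one of the other libraries it was 0.312 to 0.460. The check of the labels thus rests on few reads of the targeted gene. The counting interval lay below 1 with all libraries, while the tests over libraries did not pass. Its upper end was 1.17 and 1.14 without shUHRF1 replicate 1 or 2, and 1.205 and 1.02 without shControl replicate 1 or 2. The interval stayed below 1 without replicate 3 of either group. A processed pseudogene, Gm5648, shares 14.67% of the 50-base words of Uhrf1 and had 0 reads in all 6 libraries. Another, Gm15953, shares 0.71% of them and had 10, 6 and 12 reads in shUHRF1 and 6, 8 and 5 reads in shControl.

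Uhrf2, the paralog with a similar domain layout, made up nearly all UHRF transcripts. Its levels were 81.0, 68.7 and 71.7 CPM in shUHRF1, against 62.4, 63.3 and 50.9 CPM in shControl. Every shUHRF1 library stood above every shControl library, but the log2 fold change of 0.33 ± 0.13 was not called (edgeR adjusted p = 0.102). Per kilobase of annotated exon, Uhrf1 was 0.358% ± 0.278 of UHRF reads in shUHRF1 and 1.21% ± 0.270 in shControl (SD, n = 3 each).

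The maintenance methyltransferase and the deubiquitinase that stabilises it had lower values in every shUHRF1 library, and neither was called. Dnmt1 (chr9:20907209-20959888, minus strand) had 66.7, 68.4 and 61.0 CPM in shUHRF1, against 97.3, 71.1 and 74.3 CPM in shControl. The groups did not overlap, though shUHRF1 replicate 2 and shControl replicate 2 were close, and the log2 fold change was -0.31 ± 0.14 (edgeR adjusted p = 0.156). Without shControl replicate 1, the highest library, it was -0.18, with an edgeR adjusted p of 0.412, and under upper-quartile scaling it was also -0.18. Usp7 (chr16:8689595-8792308, minus strand) had 143.0, 140.1 and 115.7 CPM in shUHRF1, against 190.9, 168.9 and 158.6 CPM in shControl. The groups did not overlap, and its log2 fold change of -0.38 ± 0.13 had an adjusted p of 0.0667. With the replicate number as a block, the same edgeR test gave Usp7 an adjusted p of 0.0322, which is a call. Usp7 was also called by DESeq2, at an adjusted p of 0.0451, and with an offset for GC content and length in edgeR, at 0.0299. With the block, the members called were Tet2 and Usp7, 2 of 8 tested, beside 31% of all genes tested, 15.3% higher and 15.7% lower in shUHRF1.

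Of the de novo methyltransferases, Dnmt3a was well expressed and Dnmt3b was at the edge of detection in both groups. Dnmt3a (chr12:3806007-3914443, plus strand), which carries most de novo activity in neurons, had 308.1, 360.4 and 343.2 CPM in shUHRF1, against 359.7, 321.3 and 411.3 CPM in shControl. The groups overlapped, and the log2 fold change was -0.11 ± 0.13 (edgeR adjusted p = 0.58), which became 0.018 under upper-quartile scaling. Dnmt3b, active mainly in early embryos, had 21, 7 and 18 reads in shUHRF1, against 4, 5 and 8 reads in shControl. Of the shUHRF1 libraries, replicate 2 held the fewest reads, and after scaling for depth it lay just above the highest shControl library. Over each group these were 46 reads in shUHRF1 and 17 in shControl, a depth-scaled ratio of 2.42 with a 95% counting interval of 1.36 to 4.50. The exact permutation test gave p = 0.1, the smallest it allows, and with Dnmt3b kept in the edgeR fit the log2 fold change was 1.24 ± 0.46 (adjusted p = 0.0877). Without shUHRF1 replicate 2, the lowest of its group, the gene passed the filter, but only through the shUHRF1 libraries. It was then called, at a log2 fold change of 1.48 and an edgeR adjusted p of 0.0445. That call rests on leaving out the library closest to shControl. Dnmt3c, a close copy of Dnmt3b that shares 9.81% of its 50-base words, had 0 reads in all libraries.

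Tet2 was the one member called in the fit without a block, and it was higher in shUHRF1. It lies on chr3:133463679-133545139 on the minus strand (ENSMUSG00000040943.12) and encodes the TET enzyme that lacks a DNA-binding CXXC domain of its own. Its levels were 91.9, 66.2 and 75.4 CPM in shUHRF1, against 24.9, 37.1 and 28.4 CPM in shControl. The lowest shUHRF1 library stood above the highest shControl library by a wide margin, and both of these were replicate 2. The log2 fold change was 1.37 ± 0.19, or 2.59-fold with a 95% interval of 1.92 to 3.48 (edgeR adjusted p = 0.00252). By same-numbered libraries, shUHRF1 over shControl was 3.70-fold, 1.78-fold and 2.65-fold. Over all genes tested, 24% were called in either direction, 11.6% were called higher and 12.4% lower in shUHRF1, and 7.05% were called with a log2 fold change of at least 1. One call among 8 members tested is 12.5%, so calls were not more frequent among the members than among all genes tested.

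The other TET genes gave no call. Tet1 (chr10:62804570-62908996, minus strand) had 37.9, 38.6 and 42.2 CPM in shUHRF1, against 41.3, 40.5 and 43.4 CPM in shControl. The groups overlapped, and the log2 fold change of -0.08 ± 0.11 had a 95% interval of -0.32 to 0.17 (edgeR adjusted p = 0.65) and became 0.05 under upper-quartile scaling. Tet3 (chr6:83362373-83459084, minus strand), a TET enzyme long known from neurons, had 105.8, 113.9 and 106.8 CPM in shUHRF1, against 83.1, 88.0 and 113.2 CPM in shControl. Only shControl replicate 3 reached the shUHRF1 range, and the log2 fold change was 0.20 ± 0.14 (edgeR adjusted p = 0.333).

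**Figure D2:**
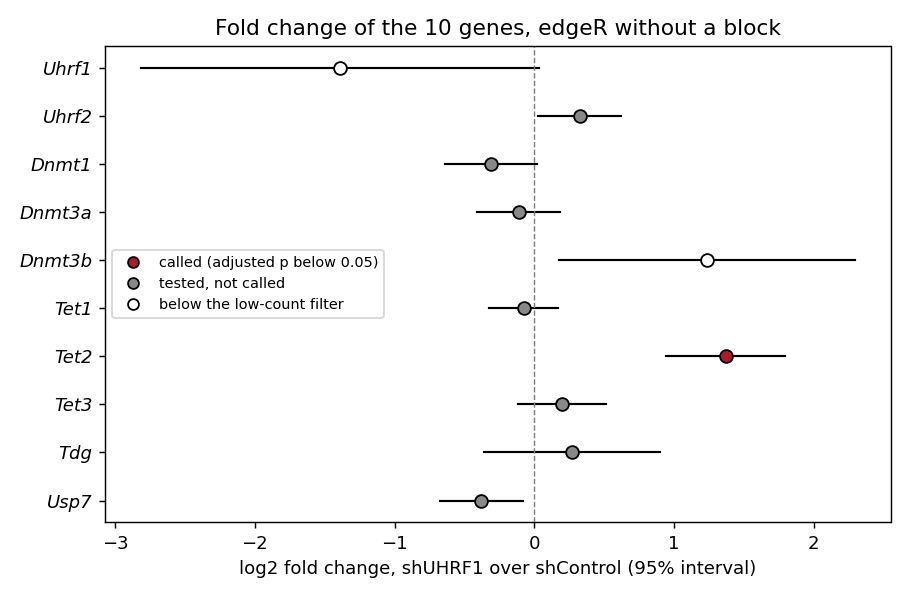
Log2 fold change of shUHRF1 over shControl for the 10 genes (horizontal axis) with the 95% interval from edgeR without a block. Red marks the gene called, grey the genes tested and not called, and white the genes below the low-count filter. Tet2 stands at 1.37, and Uhrf1 and Dnmt3b have the widest intervals.

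Tdg, the glycosylase that removes oxidised methylcytosine, was a low transcript. It had 46, 29 and 32 reads in shUHRF1, against 26, 21 and 32 reads in shControl. In CPM these were 2.07, 1.71 and 1.55 in shUHRF1, against 1.51, 1.36 and 1.53 in shControl, so the groups were separated by a narrow gap. The log2 fold change was 0.27 ± 0.27 (edgeR adjusted p = 0.511). The count is uncertain because processed pseudogenes share many of the gene's 50-base words, with 29.45% shared with Tdg-ps and 15.77% with Gm9855. Gm9855 held more reads than Tdg in all 6 libraries, with 84, 48 and 93 in shUHRF1 and 51, 45 and 99 in shControl. The exons of Tdg also overlap those of Glt8d2 on the opposite strand over 6.83% of their length, and the strand setting of the counting is not given in the sources used here.

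Taking the 8 members that passed the filter, 3 (Uhrf2, Tet2 and Tdg) had CPM values wholly above shControl, 2 (Dnmt1 and Usp7) wholly below, and 3 (Dnmt3a, Tet1 and Tet3) overlapped. Over all genes tested, 44% had groups that did not overlap, 21.7% with shUHRF1 higher and 22.3% with shUHRF1 lower. The median log2 fold change of these 8 members was 0.06, beside 0.02 over all genes tested.

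Levels can be compared between genes only per kilobase. In CPM per kilobase of all annotated exons, Dnmt3a led in shUHRF1 at 20.3 ± 1.60, followed by Usp7 at 17.1 ± 1.93, Dnmt1 at 8.86 ± 0.525 and Uhrf2 at 8.59 ± 0.744 (SD, n = 3). Below them in shUHRF1 came Tet3 at 6.52 ± 0.265, Tet2 at 4.61 ± 0.773, Tet1 at 2.56 ± 0.150, Tdg at 0.330 ± 0.0492, Dnmt3b at 0.145 ± 0.0564 and Uhrf1 at 0.0306 ± 0.0230. Of the neighbours in that order, Dnmt1 and Uhrf2 overlapped between libraries and the others did not. In shControl, Usp7 led at 22.3 ± 2.12, followed by Dnmt3a at 21.9 ± 2.72, Dnmt1 at 11.0 ± 1.94, Uhrf2 at 6.85 ± 0.807 and Tet3 at 5.68 ± 0.968. Below them in shControl came Tet1 at 2.70 ± 0.0957, Tet2 at 1.79 ± 0.373, Tdg at 0.273 ± 0.0174, Uhrf1 at 0.0855 ± 0.0269 and Dnmt3b at 0.0613 ± 0.0148. There the neighbours that overlapped were Usp7 and Dnmt3a, Uhrf2 and Tet3, and Uhrf1 and Dnmt3b. Tet2 thus lay above Tet1 in every shUHRF1 library and below it in every shControl library on this scale. The order of these genes depends on the length used. With the length of the longest coding transcript instead, Tet2 at 3.28 ± 0.686 and Tet1 at 2.90 ± 0.103 overlapped in shControl, and Uhrf2 stood above Dnmt1 in shUHRF1, at 20.9 ± 1.81 against 11.1 ± 0.659.

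The makeup of the TET transcripts shifted towards Tet2 in all 3 same-numbered pairs. Tet2 made up 38.3%, 29.6% and 32.9% of TET reads per kilobase in shUHRF1, against 16.2%, 21.8% and 14.9% in shControl. Its mean share was 33.6% ± 4.37 in shUHRF1 and 17.6% ± 3.66 in shControl (SD, n = 3 each). Tet1 averaged 18.7% ± 1.44 in shUHRF1 and 26.7% ± 2.28 in shControl, and Tet3 averaged 47.7% ± 3.55 in shUHRF1 and 55.7% ± 4.08 in shControl. None of these 3 shares overlapped between the groups. Since shares of one family sum to a whole, the lower joint share of Tet1 and Tet3 follows from the higher share of Tet2. The summed TET level was 13.7 ± 0.504 CPM per kilobase in shUHRF1 and 10.2 ± 1.08 in shControl, and these ranges did not overlap. By the longest coding transcript the share of Tet2 was 39.8% ± 4.71 in shUHRF1 and 22.1% ± 4.38 in shControl.

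**Figure D3:**
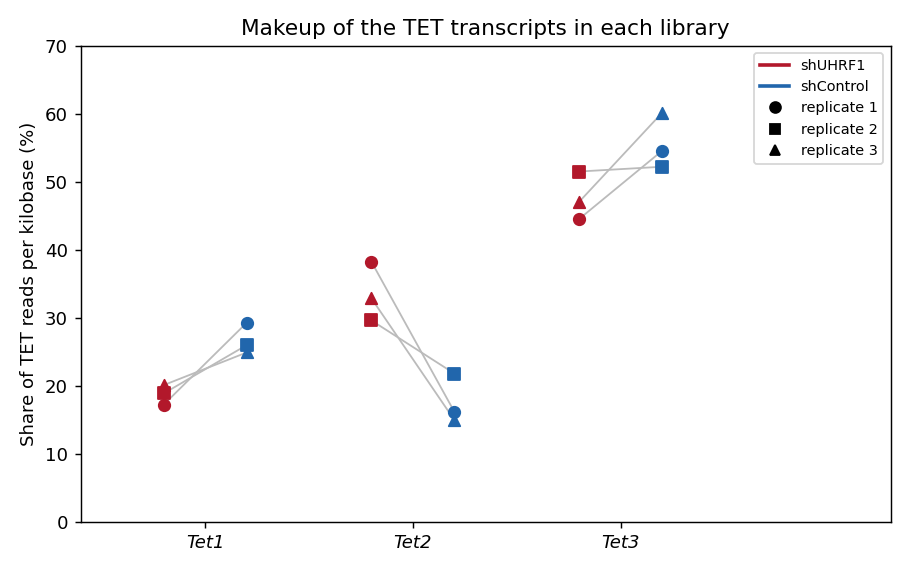
Share of each TET gene in the TET reads per kilobase of annotated exon (percent), by library, with shUHRF1 in red on the left and shControl in blue on the right, and grey lines joining libraries of the same replicate number. All 3 lines for Tet2 run down towards shControl, with a mean of 33.6% in shUHRF1 and 17.6% in shControl.

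The shares within the DNMT family moved by a few percentage points. Dnmt1 averaged 30.3% ± 2.10 of DNMT reads per kilobase in shUHRF1 and 33.3% ± 4.47 in shControl, and Dnmt3a averaged 69.2% ± 2.19 in shUHRF1 and 66.5% ± 4.43 in shControl. Both shares overlapped between the groups (exact permutation p = 0.4). By same-numbered libraries the share of Dnmt1 was lower and that of Dnmt3a higher in shUHRF1 in 3 of 3 pairs, with a sign-flip p of 0.25, the smallest it allows and the same as for the TET shares. Dnmt3b stayed a trace, at 0.505% ± 0.215 in shUHRF1 and 0.188% ± 0.05 in shControl. The log2 ratio of the erasers (Tet1, Tet2, Tet3 and Tdg) to the methyltransferases was -1.06 ± 0.14 in shUHRF1 and -1.66 ± 0.21 in shControl, a difference of 0.60 with no overlap. Of 10 such ratios and shares compared, the 8 without overlap had an exact permutation p of 0.1 and a Benjamini-Hochberg value of 0.125, and 0.1 is the smallest p the design allows. These 8 are not separate results. The TET shares, the ratio of Tet2 to Tet1 plus Tet3 and the ratio of erasers all contain Tet2. The Uhrf1 and Uhrf2 shares mirror each other, and they and the Dnmt3b share turn on few reads.

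The groups also differed in markers of cells other than neurons, which stand here beside the Tet2 result. Of 10 fibroblast markers, 8 were tested and all 8 were called higher in shUHRF1, beside 11.6% of all genes tested. The 10 markers summed to 72.5 to 166 CPM in shUHRF1 libraries and 7.06 to 10.2 CPM in shControl libraries. Twist1 and Fbln1, which were not tested, overlapped between the groups. Of 10 glial markers, 8 were tested and 6 were called higher, with sums of 125 to 393 CPM in shUHRF1 and 328 to 380 CPM in shControl. S100b and Cadm4, which were not called, made up most of these sums, and the 6 called markers had log2 fold changes of 2.64 to 3.27. The mean log2(CPM + 1) over the 10 glial markers was 2.33 to 2.81 in shUHRF1 libraries and 1.73 to 1.75 in shControl libraries, with no overlap. Of 10 macrophage markers, 7 were tested and 4 were called higher, with sums of 16.5 to 40.5 CPM in shUHRF1 and 6.02 to 11.96 CPM in shControl. For endothelial and mural cells 2 of 6 tested markers were called higher, with sums of 40.4 to 57.9 CPM in shUHRF1 and 43.0 to 45.4 CPM in shControl. Of 12 tested markers of cycling cells, 1 was called higher and 1 lower, with sums of 44.3 to 60.8 CPM in shUHRF1 and 56.0 to 63.4 CPM in shControl. The markers of sensory neurons fit the label of the tissue, with sums of 12440 to 16310 CPM in shUHRF1 and 16160 to 18380 CPM in shControl, and 1 of 10 was called lower. None of the listed markers was at 0 in all libraries of a group. Among the called markers, Lum, Pdgfra, Fap, Sox10, Fabp7, Foxd3, Kcnj10, Ptprc, Ctss and Eng were below the filter's minimum count in every shControl library. They were tested only through the shUHRF1 libraries, so their calls were partly set by the filter. The part of these cells in the level of Tet2 was not tested. In bulk RNA, fewer cells of a type and less RNA per cell cannot be told apart.

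As a description of which transcripts varied most like Tet2, the Pearson correlation of log2(CPM + 1) over the 6 libraries was taken for 10231 protein-coding genes that averaged 5 CPM or more. Among the highest were Ccdc191 (r = 0.9994), Pde4d (0.9968), Tmem38b (0.9959) and Kdm5a (0.9957), and 353 genes had an r of at least 0.95. Pde4d encodes a cyclic AMP phosphodiesterase and Kdm5a a histone H3 lysine demethylase. The mean levels of these 4 genes ranged from 9.61 CPM for Tmem38b to 71.9 CPM for Kdm5a in shUHRF1, and in shControl Tmem38b had 5.09 and Kdm5a 47.4 CPM. The 6 points of each correlation fall into the 2 groups and share libraries and depth.

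One annotated start window of each TET gene is shown so that the CpG content of 3 related genes can be read side by side. Each is the RefSeq window of GRCm38.p6 from 250 bases before to 50 bases after the annotated start, on the gene's strand, with every CG in capitals.
Tet2, chr3:133544341-133544640, minus strand: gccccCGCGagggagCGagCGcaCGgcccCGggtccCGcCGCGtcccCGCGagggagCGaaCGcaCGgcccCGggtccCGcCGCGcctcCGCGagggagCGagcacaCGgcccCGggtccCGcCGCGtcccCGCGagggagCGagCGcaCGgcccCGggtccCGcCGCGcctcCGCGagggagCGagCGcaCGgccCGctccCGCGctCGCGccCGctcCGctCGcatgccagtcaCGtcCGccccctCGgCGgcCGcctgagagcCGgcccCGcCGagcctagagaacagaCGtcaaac
Tet1, chr10:62887275-62887574, minus strand: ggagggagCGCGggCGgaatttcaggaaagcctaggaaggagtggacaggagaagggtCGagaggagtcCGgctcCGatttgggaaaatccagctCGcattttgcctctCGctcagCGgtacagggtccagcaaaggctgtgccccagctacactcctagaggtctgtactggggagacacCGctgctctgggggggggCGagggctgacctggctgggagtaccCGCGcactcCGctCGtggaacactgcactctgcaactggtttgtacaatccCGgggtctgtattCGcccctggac
Tet3, chr6:83441629-83441928, minus strand: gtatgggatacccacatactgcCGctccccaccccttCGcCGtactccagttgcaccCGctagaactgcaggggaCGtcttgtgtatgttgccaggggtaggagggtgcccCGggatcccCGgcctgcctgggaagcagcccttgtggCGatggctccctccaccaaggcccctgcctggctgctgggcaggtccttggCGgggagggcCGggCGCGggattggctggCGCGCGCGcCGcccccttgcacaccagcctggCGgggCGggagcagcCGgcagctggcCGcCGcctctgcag
The Tet2 window holds 57 CpG dinucleotides, the Tet3 window 22 and the Tet1 window 17, beside a median of 7 over the 32851 windows of the table. A high count was not particular to Tet2 among the members, since the Usp7 window holds 63 and the fullest Dnmt3a window 47. The motif counted was CG, which reads the same on both strands. The Tet1 and Tet3 windows lie inside the annotated gene spans, which begin on the minus strand at 62908996 and 83459084. The Tet2 window lies close to the beginning of its span, at 133545139, so the 3 windows are not like for like. Methylation of these windows was not measured in these libraries, and other start sites of the genes were not examined.

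Of 40 other genes of cytosine methylation and demethylation, 36 were tested, of which 8 were called higher and 2 lower in shUHRF1. That is 27.8%, near the 24% over all genes tested, with a median log2 fold change of 0.17 beside 0.02. The proteins that work with UHRF1 and DNMT1 at the replication fork gave no call among 6 tested (Hells, Cdca7, Cdca7l, Lig1, Pcna and Pclaf), and the 3 enzymes of the methyl donor cycle gave none. Hells, a chromatin remodeller needed for methylation of repeats, had a log2 fold change of -0.64 ± 0.23 (edgeR adjusted p = 0.0766) and was called with the replicate block, at 0.0312. Apobec3, a cytidine deaminase that restricts retroviruses, had 4.09, 1.47 and 1.36 CPM in shUHRF1, against 1.51, 0.194 and 0.526 CPM in shControl. Its groups overlapped, and its log2 fold change of 1.63 ± 0.70 was not called (edgeR adjusted p = 0.13) but was with the block, at 0.0121. With 26, 3 and 11 reads, the shControl libraries alone would not have passed the filter. Apobec3 was tested only through the shUHRF1 libraries, with 91, 25 and 28 reads, so its call with the block was partly set by the filter.

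Among 5 cofactors and partners of the TET enzymes, the 2 genes with a CXXC zinc finger were called higher, beside 11.6% called higher over all genes tested. Cxxc4, also called IDAX, is known to bind TET2 and averaged 35.2 ± 2.03 CPM in shUHRF1 and 20.9 ± 3.43 CPM in shControl (log2 fold change 0.75 ± 0.15, edgeR adjusted p = 0.0101). Cxxc5, its close paralog, averaged 21.3 ± 3.83 CPM in shUHRF1 and 10.8 ± 2.50 CPM in shControl (log2 fold change 0.97 ± 0.22, edgeR adjusted p = 0.0164). Its call was lost without shControl replicate 3, at an adjusted p of 0.0517. Ogt, the sugar transferase that binds TET proteins, had a log2 fold change of 0.31 ± 0.13 (edgeR adjusted p = 0.117). Idh1 and Idh2, which make the cosubstrate of the TET enzymes, had log2 fold changes of -0.09 ± 0.11 and -0.30 ± 0.23 with edgeR adjusted p of 0.591 and 0.379.

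In base excision repair, 4 of 13 genes were called higher, none lower, and 9 were not called, so that 30.8% were called beside 24% over all genes tested. Parp1, the sensor of DNA strand breaks, averaged 266 ± 29.8 CPM in shUHRF1 and 168 ± 8.30 CPM in shControl, a log2 fold change of 0.66 ± 0.12 (edgeR adjusted p = 0.00714). Neil2, a glycosylase for oxidised bases, averaged 4.75 ± 0.522 CPM in shUHRF1 and 2.18 ± 0.661 CPM in shControl, a log2 fold change of 1.11 ± 0.28 (edgeR adjusted p = 0.0263). The call of Neil2 was lost in 5 of 6 fits that left out 1 library, with adjusted p of 0.0564 to 0.0703, and held without shUHRF1 replicate 2. Polb, the repair polymerase, and Smug1, a uracil glycosylase, were called at edgeR adjusted p of 0.0404 and 0.0474. Both of these calls were lost without shUHRF1 replicate 3 and without shControl replicate 1 or 3.

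The 2 genes of the list called lower in shUHRF1 were Kdm2b and Cxxc1, which both encode CXXC proteins. Kdm2b, a histone demethylase that binds unmethylated CpG, averaged 15.0 ± 0.659 CPM in shUHRF1 and 26.1 ± 1.82 CPM in shControl (log2 fold change -0.80 ± 0.13, edgeR adjusted p = 0.00458). Cxxc1, which brings the SETD1 methyltransferase to CpG islands, averaged 17.5 ± 2.66 CPM in shUHRF1 and 26.6 ± 3.90 CPM in shControl (log2 fold change -0.61 ± 0.17, edgeR adjusted p = 0.0351). Its call was lost without shUHRF1 replicate 2 or 3 and without shControl replicate 1 or 3, with adjusted p of 0.0569 to 0.11. Gadd45g, an adaptor of stress signalling that has been linked to demethylation, had 9.21, 8.77 and 11.7 CPM in shUHRF1, against 4.59, 2.72 and 3.68 CPM in shControl (log2 fold change 1.43 ± 0.24, edgeR adjusted p = 0.00601). Its paralogs Gadd45a and Gadd45b were not called. Apobec1, a cytidine deaminase that acts on RNA, had 1.17, 1.47 and 2.13 CPM in shUHRF1, against 0.290, 0.194 and 0.383 CPM in shControl (log2 fold change 2.40 ± 0.42, edgeR adjusted p = 0.00659). Every library of shUHRF1 stood above every library of shControl for both Gadd45g and Apobec1. With 5, 3 and 8 reads, Apobec1 was below the filter's minimum count in every shControl library. It was tested only through the shUHRF1 libraries, with 26, 25 and 44 reads, so its call was partly set by the filter. The marker differences given beside Tet2 accompany the calls of this wider list as well, and their part in them was not tested.

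**Figure D4:**
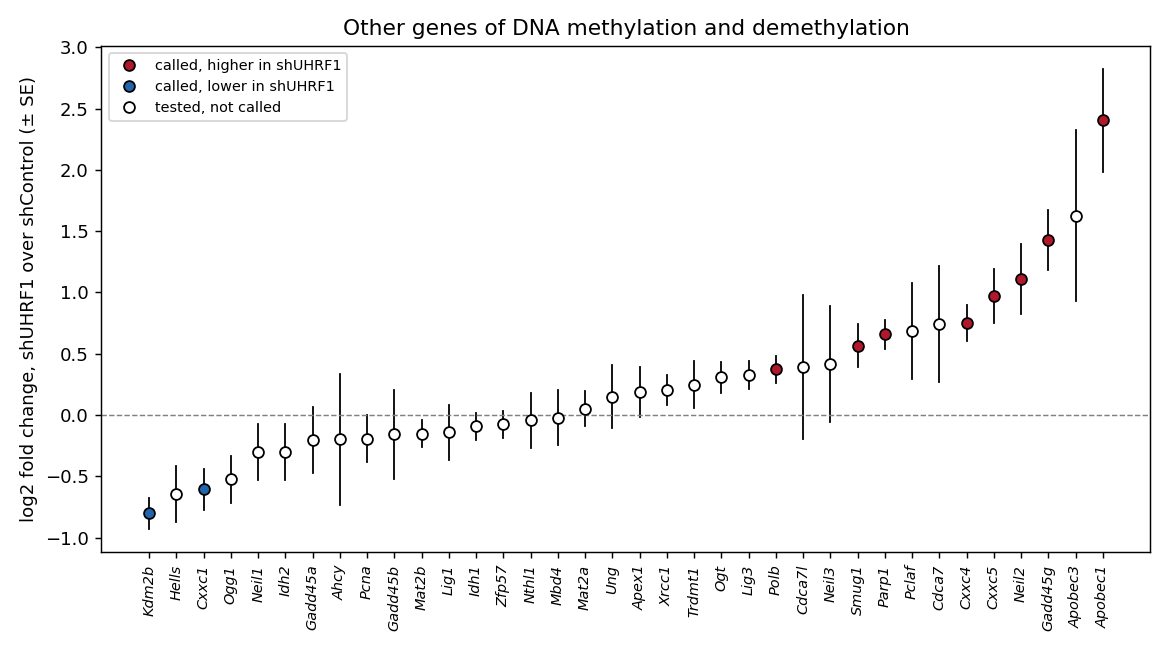
Log2 fold change of shUHRF1 over shControl (vertical axis, ± SE) for the 36 tested genes of the wider methylation and demethylation list, in order of size along the horizontal axis. Red marks genes called higher in shUHRF1, blue genes called lower and white genes not called. The 8 called higher lie at 0.37 or above, and the 2 called lower are Kdm2b and Cxxc1.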

How the data were processed

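The authors deposited 1 table of raw read counts per gene for each of 6 libraries. Per the labels' protocols, RNA was freed of ribosomal RNA and copied with a SMARTer kit. FastQC, STAR, HTSeq, DESeq2 and the mm10 build are named in the submitters' processing notes, with no version and no strand setting given in the sources used here. Symbols, exon lengths and untranslated regions came from GENCODE M21 (GRCm38, the same assembly as mm10), and 47224 of 47643 identifiers matched. Summary lines were left out: reads outside genes were 8.43% to 17.18% of entries, ambiguous reads 2.12% to 2.27% and reads not uniquely aligned 30.5% to 37.28%.

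Counts were fitted with edgeR 4.0.16 in R 4.3.3, using filterByExpr (minimum count 10), TMM factors and the two-sided quasi-likelihood F test without a block. Benjamini-Hochberg adjustment ran over 15573 genes. Members below the filter were kept in an added fit. Shares of families used counts per kilobase and exact permutation tests. The code was tested on simulated counts. Alternatives were DESeq2 1.42.0, limma-voom (limma 3.58.1), RLE and upper-quartile factors, other filters, a GC and length offset, the replicate block, and leaving out libraries. The replicate numbers appear to pair the libraries. After the group means were removed, same-numbered libraries correlated at 0.32, 0.40 and 0.40, and others at 0.00 or below. The low values of the others follow in part from the high ones, since deviations from a group mean cancel out. This pairing comes from the data, not from the labels.

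The members and lists were chosen with earlier results of these data known. All members are named, and so are the genes most correlated with Tet2, of which 1 is not reported here. Of the wider list, the 8 called genes of smallest p are named by rule, while Polb, Smug1, Hells, Apobec3, Ogt, Idh1 and Idh2 were chosen after their values were seen. Sequences are from RefSeq and GENCODE. Intervals of pooled read ratios cover counting error only, and edgeR intervals include the spread between libraries.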

Additional observations from a re-analysis of the deposited data

How the results depend on the processing

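Tet2 was called higher in all 18 alternatives, with log2 fold changes of 1.18 to 1.64 and an adjusted p of at most 0.0174. The number of members called, 1, became 2 with DESeq2 (Usp7 added), upper-quartile factors (Uhrf2 added), the GC and length offset (Usp7), the replicate block (Usp7) and the block with that offset (Usp7). It was 4 with the replicate block on library pairs 1 and 3 (Uhrf2, Dnmt1, Tet2 and Usp7), an alternative chosen after seeing the data, as was the longest coding transcript as length. Leaving out 1 library gave 1 to 2 members called, with Dnmt3b added without shUHRF1 replicate 2, where it passed the filter only through shUHRF1. The replicate block changed the call of no other member, and called 4820 genes where the fit without it called 3735. Its exact sign-flip test on shares cannot go below p = 0.25. Upper-quartile scaling turned the log2 fold change of Dnmt3a to 0.018 and of Tet1 to 0.05. That scaling moved the median over all genes to 0.14 and gave 2512 genes higher and 1378 lower, where TMM gave 1807 and 1928 and the GC and length offset 1580 and 2387. Genes called ranged from 1768 to 3888 when 1 library was left out, with 2171 without shUHRF1 replicate 3, 2018 without shControl replicate 1 and 1768 without shControl replicate 3. Of the wider list, 10 genes called became 6 on library pairs 1 and 3, and 5 to 9 when 1 library was left out. The number was 12 with the replicate block (Hells added, and Apobec3, which passed the filter only through shUHRF1). The causes of these shifts were not tested. Cxxc5, Neil2 and Cxxc1 also lost their calls on library pairs 1 and 3 (adjusted p 0.0581, 0.0608 and 0.066), and Cxxc1 with upper-quartile factors (0.0665). Family shares kept their direction in 9 of 9 alternatives. Few reads limit Uhrf1, Dnmt3b and Tdg.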
